A study of Mus musculus with 23 samples.

Results

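The genes described here belong to fatty acid oxidation, the pathway that breaks fatty acids down to acetyl-CoA in mitochondria and peroxisomes, together with genes that fatty acids are known to switch on. They were chosen by symbol as a list of 34 genes, and all 34 were found among the 22517 named genes of both deposited tables. The list is also named for ketogenesis, the making of ketone bodies from acetyl-CoA, but none of its genes encodes an enzyme of that step.

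Long-chain fatty acids are first joined to coenzyme A by acyl-CoA synthetases and are then carried into mitochondria by the carnitine shuttle, whose entry enzyme Cpt1a is the classical point of control. Inside, a cycle of dehydrogenation, hydration, a further dehydrogenation and thiolysis shortens the chain, and electrons leave through the electron transfer flavoprotein. Very long and branched chains are shortened in peroxisomes by a parallel set of enzymes, and many genes of both routes are targets of the lipid-sensing nuclear receptor Ppara. Absorptive enterocytes of the villus take up dietary fat and have long been known to express much of this machinery.

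RNA was sequenced from 3 groups of adult mice on a mixed B6;129 background, with 3 libraries in each group. Wild-type villus was epithelium of the proximal intestine of EedF/F mice without Cre. Eed-null villus came from EedF/F mice with Villin-CRE, a recombinase active throughout the gut epithelium, so that Eed, a core subunit of the Polycomb repressive complex PRC2, is lost there. The intestinal stem cells (ISC) were sorted for high GFP from crypts of Eed+/+ mice carrying Lgr5-EGFP-IRES-CREERT2. All 3 groups had received 1 to 2 mg tamoxifen on 5 days. ISC were dissociated with enzyme and sorted whereas villus epithelium was frozen directly, so cell type, handling and genotype cannot be told apart in the comparison of villus with ISC. Likewise, Cre and loss of Eed cannot be told apart in the Eed-null comparison.

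The tables give 1 value per gene and group in RPKM, reads per kilobase of gene scaled to the mapped reads of a library, which allows levels to be compared between genes. Values of single libraries are not printed, so the depth and the spread between libraries are unknown and the overlap of groups cannot be judged. The authors' q, a p-value adjusted over all tested genes, is the only measure of error. A gene is called here where it was tested and q was at or below 0.05. The 2 tables were scaled separately and share the 3 wild-type villus libraries. In bulk RNA, fewer cells of a type and less RNA per cell cannot be told apart. Of the 34 genes, 33 were tested in both comparisons, all except Fgf21.

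The labels held on Eed and on the enterocyte and stem cell markers. Eed itself stood at 3.00 RPKM in Eed-null villus but 9.17 RPKM in wild type (authors' deposited table, q = 6.29e-06). Enterocyte markers (19 of 19 tested) were called higher in villus, and stem cell markers (15 of 15) higher in ISC. Markers of other cell types were present too. Paneth cell markers (5 of 5) were called higher in ISC, and goblet cell markers were divided, with 3 of 8 called higher in villus and 1 in ISC. Leukocyte markers were also higher in villus, with 7 of 11 tested called and a summed level of 121 RPKM against 31.5 RPKM in ISC. The adipocyte genes Adipoq, Lep, Cfd, Retn and Plin1 were each listed at 0 in villus, while Cidec, also a lipid droplet gene, was the only tested gene of that list. The part of these other cell types in the results was not tested.

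Most fatty acid oxidation genes were called higher in villus than in ISC. Of 33 tested members, 26 (78.8%) were called higher in villus and 2 (6.06%) were higher in ISC, whereas 30.5% and 32.3% of the 13007 tested genes were called in these directions. The median log2 ratio of villus to ISC was 1.21 over the members and -0.10 over all tested genes. Members are abundant transcripts, and among the 4121 tested genes that reached 10 RPKM in each group 41.0% were called higher in villus, with a median log2 ratio of 0.28. The 27 members in that range had 22 higher calls (81.5%) and no lower call. Called in either direction were 28 members, against 62.8% of all tested genes. The 5 members not called were Cpt1a, Acsl1, Acsl3, Eci1 and Eci2.

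**Figure D1:**
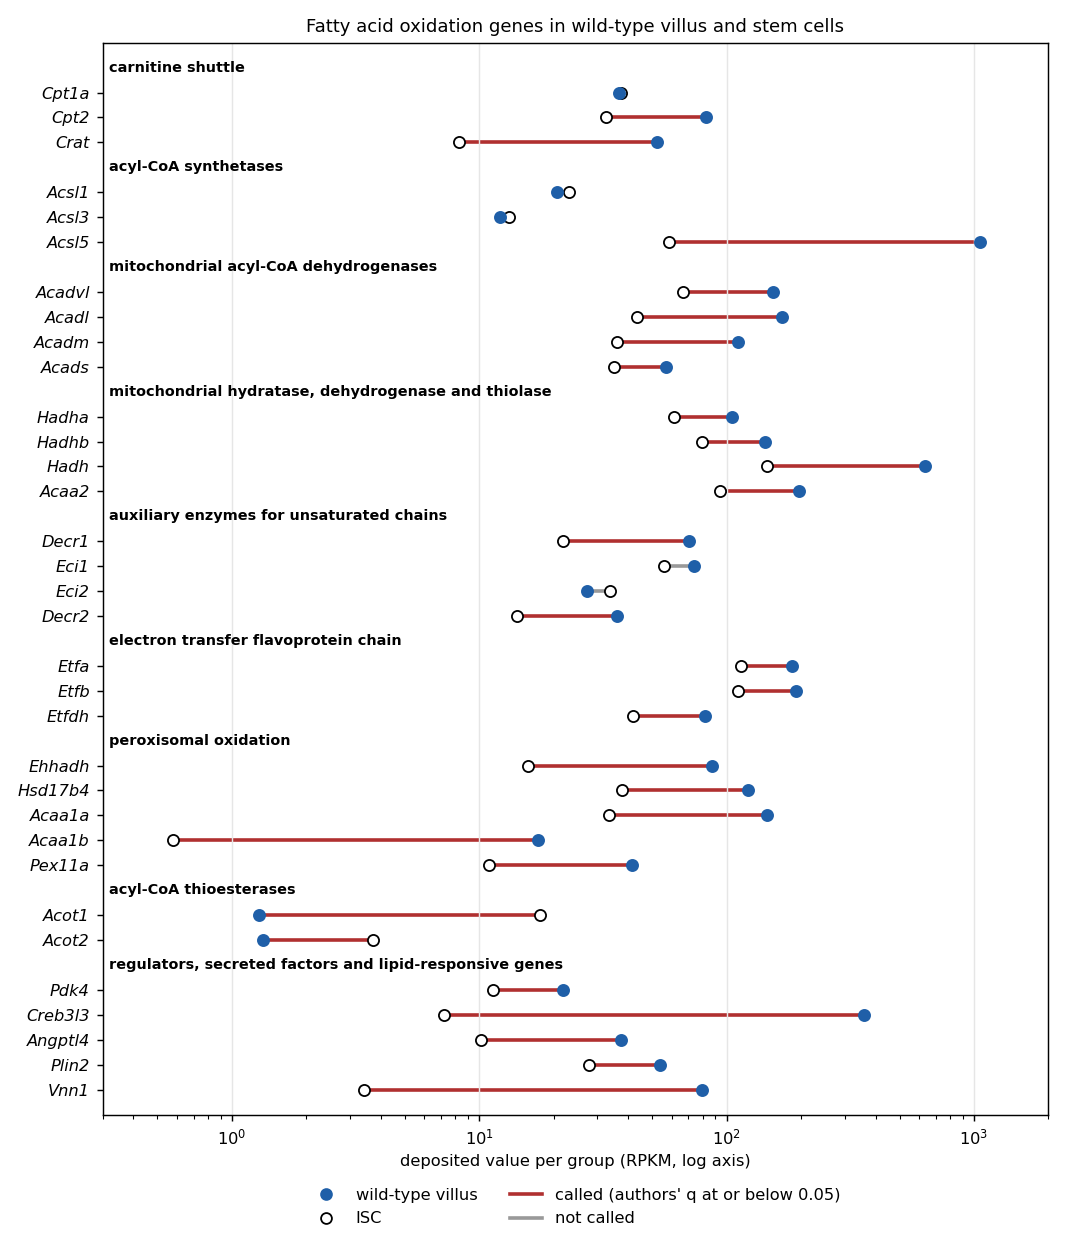
Deposited RPKM (log axis) of the 33 tested members in wild-type villus (filled circles) and ISC (open circles), grouped by role; each point is the authors' 1 value for 3 libraries, and lines are red where the gene was called. Cpt1a, Acsl1 and Acsl3 sit at nearly the same level in both groups, Acot1 and Acot2 lie higher in ISC, and most others lie higher in villus, of which Hadha, Hadhb, Etfa and Etfb turn when both groups are brought to 1 distribution; Fgf21, listed at 0 in villus, is not drawn.

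In the carnitine shuttle 2 of 3 genes were called higher in villus, and Cpt1a was not called. Pairs of levels below give villus first and ISC second. Cpt1a, which makes acylcarnitine at the outer mitochondrial membrane, stood at 36.6 RPKM in villus but 37.3 RPKM in ISC (authors' deposited table, q = 0.927). Cpt2, which turns acylcarnitine back to acyl-CoA inside, had 82.7 against 32.6 RPKM, a 2.54-fold higher level in villus (authors' deposited table, q = 1.01e-08). Crat, the acetyltransferase that trades short acyl groups with carnitine, had 52.5 against 8.27 RPKM, 6.36-fold higher, with q listed as 0 in the authors' deposited table. Its locus entry is shared with Dolpp1, so its reads cannot be assigned with certainty. The ratio of Cpt2 to Cpt1a was 2.26 in villus and 0.874 in ISC.

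Of the 3 acyl-CoA synthetases among the members, Acsl5 was called higher in villus and the other two were not called. Acsl5, the form typical of enterocytes, stood at 1060 RPKM in villus but 58.5 RPKM in ISC, an 18.1-fold difference with q listed as 0 in the authors' deposited table. It was the most abundant member and ranked 66 among all tested genes in villus. Acsl1 had 20.7 against 23.0 RPKM (q = 0.569) and Acsl3 12.2 against 13.3 RPKM (authors' deposited table, q = 0.700). Acsl5 thus exceeded Acsl1 by 51.2-fold in villus and by 2.54-fold in ISC. Acsl3 shares its locus entry with Utp14b.

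All 4 mitochondrial acyl-CoA dehydrogenases among the members, which take the first step of the cycle on chains of decreasing length, were called higher in villus. Acadl, for long chains, had 168 against 43.6 RPKM, a 3.85-fold difference with q listed as 0 in the authors' deposited table. Acadm, for medium chains, was 3.08-fold higher at 111 against 36.0 RPKM. Acadvl, for very long chains, was 2.31-fold higher at 155 against 66.8 RPKM, and shares its locus entry with Mir324. Acads, for short chains, differed least, with 56.9 against 35.1 RPKM and a 1.62-fold ratio (authors' deposited table, q = 0.00374).

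The 4 members of the later cycle steps were called higher as well, with the exceptions under rescaling given beside them. Genes of such steps outside the members did not all follow. Echs1 had 96.5 against 70.1 RPKM and was not called (authors' deposited table, q = 0.0605). Hsd17b10 was called higher in ISC, at 39.9 against 76.6 RPKM (authors' deposited table, q = 0.000179). Hadh, the short-chain hydroxyacyl-CoA dehydrogenase, stood at 636 RPKM in villus but 146 RPKM in ISC, a 4.36-fold difference (authors' deposited table, q = 1.99e-15). Acaa2, the mitochondrial thiolase, had 196 against 93.7 RPKM (2.09-fold; authors' deposited table, q = 1.03e-05). Hadha and Hadhb encode the subunits of the trifunctional protein, which handles long chains at the inner membrane. Hadha had 105 against 61.3 RPKM (1.72-fold; authors' deposited table, q = 0.00305) and Hadhb 142 against 79.3 RPKM (1.80-fold, q = 0.000568), directions that turned when both groups were brought to 1 distribution of values. The ratio of Hadha to Hadhb was 0.739 in villus, 0.774 in ISC and 0.701 in Eed-null villus.

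The 2 trifunctional protein genes stand head to head. On build mm9 the locus entry of Hadha spans 30431735 to 30481520 on chromosome 5, and that of Hadhb 30481861 to 30511123. The entries lie 340 bases apart. Each entry is shared with a further gene, so its ends need not be those of Hadha or Hadhb. The RefSeq promoter windows of the 2 genes, on build GRCm38.p6, lie on opposite strands with start sites 273 bases apart. They overlap over 228 bases, chr5:30155003-30155230. This stretch is shown because it lies between the start sites of both genes, and it is printed along the Hadhb strand with its 15 CpG dinucleotides in capitals.
Hadha and Hadhb: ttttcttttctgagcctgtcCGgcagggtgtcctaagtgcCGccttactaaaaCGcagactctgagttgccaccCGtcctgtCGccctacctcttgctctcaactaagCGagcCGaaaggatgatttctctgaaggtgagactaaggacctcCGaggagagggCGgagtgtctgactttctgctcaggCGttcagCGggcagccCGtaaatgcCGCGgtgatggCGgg
Hadha and Hadhb each share a locus entry with a further gene, Gareml and Mir1960.

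The auxiliary enzymes, which prepare unsaturated chains for the cycle, split. The reductase genes were called higher in villus, Decr1 of mitochondria at 70.5 against 21.8 RPKM (3.24-fold) and Decr2 of peroxisomes at 36.1 against 14.3 RPKM (2.53-fold) (authors' deposited table, q = 3.93e-13 and 6.12e-08). The isomerase genes were not called. Eci1 had 73.6 against 55.7 RPKM (q = 0.112) and Eci2 27.4 against 33.9 RPKM (authors' deposited table, q = 0.492).

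The electron transfer flavoprotein passes electrons from the dehydrogenases to Etfdh and so to the respiratory chain. Etfa had 184 against 114 RPKM, Etfb 191 against 111 RPKM and Etfdh 81.7 against 41.9 RPKM, ratios of 1.61, 1.72 and 1.95. All 3 were called, though Etfa and Etfb turned under the same rescaling, with q = 0.00528, 0.000961 and 4.73e-05 in the authors' deposited table. The Etfa to Etfb ratio, for subunits that pair with each other, was 0.961 in villus and 1.03 in ISC.

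The smaller mitochondrial differences depended on scaling. Abundant genes had higher RPKM values in villus in general: the gene of rank 500 stood at 197 RPKM in villus but 107 RPKM in ISC, and the gene of rank 2000 had 43.6 against 29.3 RPKM, while at rank 6000 the values were 8.54 and 8.45 RPKM. When both groups were brought to 1 distribution of values, an alternative chosen after the data were seen, the median log2 ratio of the members was 0.68, against -0.17 over all tested genes. Hadha, Hadhb, Etfa and Etfb then turned to the ISC side, with log2 ratios of -0.035, -0.017, -0.21 and -0.11. The other 22 members called higher in villus kept that direction, among them Acads at 0.069 and Acaa2 at 0.18. No q was computed on this scale.

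**Figure D2:**
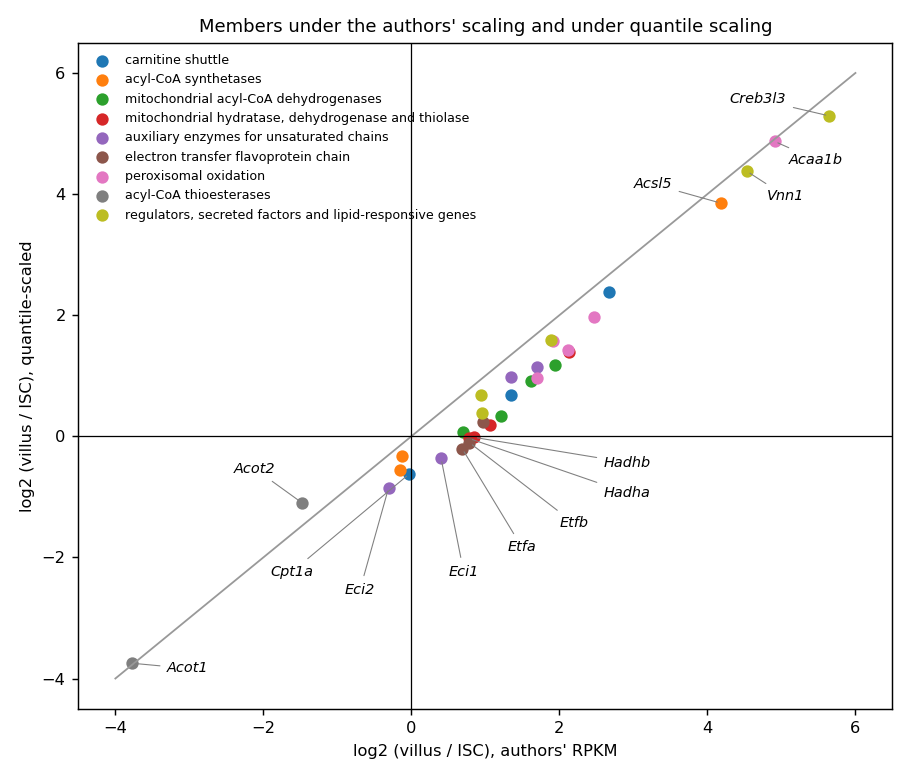
Log2 ratio of villus to ISC for the 33 tested members with the authors' RPKM (horizontal axis) and after quantile scaling of both groups (vertical axis), coloured by role, with the line of equal values. Most points fall below the line, and Hadha, Hadhb, Etfa, Etfb and Eci1 cross from above 0 to below 0.

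Peroxisomal genes showed larger differences, and all 5 were called higher in villus. Ehhadh, the bifunctional enzyme, stood at 87.3 RPKM in villus but 15.8 RPKM in ISC (5.54-fold; authors' deposited table, q listed as 0). Hsd17b4, its counterpart for branched and very long chains, had 122 against 37.8 RPKM (3.23-fold; authors' deposited table, q = 1.95e-12). Pex11a, which promotes peroxisome division, had 41.3 against 10.9 RPKM (3.77-fold; authors' deposited table, q = 2.92e-09). The thiolase copies Acaa1a and Acaa1b lie 184 kb apart on chromosome 9. Acaa1a had 145 against 33.4 RPKM (4.35-fold) and Acaa1b 17.4 against 0.578 RPKM (30.0-fold), both with q listed as 0 in the authors' deposited table. Acaa1a was the more abundant copy in both groups, by 8.38-fold in villus and 57.7-fold in ISC. The 30.0-fold and 57.7-fold ratios rest on an Acaa1b level in ISC below 1 RPKM. Reads of the 2 copies may also have been divided uncertainly.

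The 2 acyl-CoA thioesterases among the members, which split acyl-CoA back to free fatty acid, went the other way. Other thioesterases did not: 5 of 7 tested (71.4%) were called higher in villus and none in ISC, against 30.5% and 32.3% of all tested genes. Acot1, the cytosolic form, stood at 1.29 RPKM in villus but 17.7 RPKM in ISC, a 13.7-fold higher level in ISC with q listed as 0 in the authors' deposited table. Acot2, the mitochondrial form, had 1.34 against 3.72 RPKM (2.78-fold; authors' deposited table, q = 0.00041). The genes are close relatives 15.6 kb apart on chromosome 12, so their reads may have been divided uncertainly. Acot1 and Acot2 stood at nearly equal levels in villus (ratio 0.960) but not in ISC (ratio 4.74). They were the only members called higher in ISC.

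The regulators and lipid-responsive genes held the widest ratio of the list. Creb3l3, a liver and gut transcription factor of lipid metabolism, stood at 361 RPKM in villus but 7.20 RPKM in ISC, 50.1-fold. Vnn1, a pantetheinase and classical Ppara target, was 23.2-fold higher at 79.4 against 3.43 RPKM, also with q listed as 0 in the authors' deposited table. Angptl4, a secreted inhibitor of lipoprotein lipase, had 37.5 against 10.2 RPKM (3.69-fold; authors' deposited table, q = 8.97e-11). Plin2, which coats lipid droplets, and Pdk4, the kinase that shuts pyruvate dehydrogenase when fat is burned, differed less. They were 1.94-fold and 1.92-fold higher in villus, at 54.0 against 27.8 RPKM and 21.9 against 11.4 RPKM (authors' deposited table, q = 5.88e-05 and 0.000676). Fgf21, the fasting hormone of liver, was listed at 0 in villus and at 0.133 RPKM in ISC and was not tested.

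Promoter windows were searched for the binding motif of Ppara with its partner Rxra, because many members are known targets of that pair. RefSeq windows of build GRCm38.p6, from 250 bases before to 50 bases after a start site, matched 28 of the 34 members with 30 windows, and none was matched for Crat, Decr1, Angptl4, Vnn1, Acaa2 and Hsd17b4. The motif was the direct repeat AGGTCA, any 1 base, AGGTCA, on both strands, with 12 fixed bases. No member window held it exactly or with 1 mismatch, and 3 of 30 (10%) held it with at most 2 mismatches, against 3.86% of all 32851 windows. With at most 3 mismatches the shares were 26.7% and 24.6%. The 3 windows with at most 2 mismatches are shown from 250 bases before the start site, read along the gene, with the match in capitals. They are chr10:81092592-81092841, chr9:55512244-55512493 and chr4:86670060-86670309, all on the minus strand. Their genes were higher in villus than in ISC by very different degree (50.1-fold, 1.61-fold and 1.94-fold). The Creb3l3 stretch belongs to 1 of 2 windows of that gene. In the other window, chr10:81098823-81099122, the closest match had 4 mismatches.
Creb3l3: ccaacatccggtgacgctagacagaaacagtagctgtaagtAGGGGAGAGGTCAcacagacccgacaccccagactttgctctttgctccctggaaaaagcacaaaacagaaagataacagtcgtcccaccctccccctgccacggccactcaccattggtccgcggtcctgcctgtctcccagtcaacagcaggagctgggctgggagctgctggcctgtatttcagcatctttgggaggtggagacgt
Etfa: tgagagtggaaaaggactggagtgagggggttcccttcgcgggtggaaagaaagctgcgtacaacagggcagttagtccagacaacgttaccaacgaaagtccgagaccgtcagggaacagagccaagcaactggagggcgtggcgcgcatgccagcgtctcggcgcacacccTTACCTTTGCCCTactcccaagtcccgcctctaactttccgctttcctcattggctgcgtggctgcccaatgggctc
Plin2: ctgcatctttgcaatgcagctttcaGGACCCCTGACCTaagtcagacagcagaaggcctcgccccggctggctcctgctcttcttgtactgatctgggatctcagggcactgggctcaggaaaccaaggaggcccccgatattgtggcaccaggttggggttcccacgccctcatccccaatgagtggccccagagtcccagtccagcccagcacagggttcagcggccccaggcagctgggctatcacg
Counted from 1 at the 5′ end of the motif on its own strand, the Creb3l3 match differs by T4G and C5G, the Etfa match by T4G and C12A, and the Plin2 match by A8G and A13C. The Creb3l3 match reads along the gene, and those of Etfa and Plin2 lie on the opposite strand. These matches describe the letters only.

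The member windows held more CpG than promoters at large by their medians. The 30 windows are not all separate promoters, since those of Hadha and Hadhb overlap and Acsl1 and Creb3l3 have 2 each. The median ratio of observed to expected CpG was 0.520 over the 30 member windows and 0.384 over all windows, the median CpG count 14 against 7, and the median GC content 59.5% against 52.7%. A ratio of 0.6 or more was found in 10 of 30 member windows (33.3%) and in 35.8% of all windows. Of the genes called higher in villus, Acadl (0.932), Hadhb (0.878), Hadha (0.778), Etfa (0.769), Cpt2 (0.701), Etfb (0.699) and Etfdh (0.691) reached 0.6. The others with a window lay below 0.6, such as Acaa1b at 0.284, Acsl5 at 0.446 and the 2 starts of Creb3l3 at 0.401 and 0.334. These lower examples were chosen after their values were seen. Among the 5 members not called the ratio was 0.763 for Cpt1a, 0.843 for Acsl3, 0.532 for Eci1, 0.526 for Eci2, and 0.859 and 0.214 for the 2 starts of Acsl1.

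**Figure D3:**
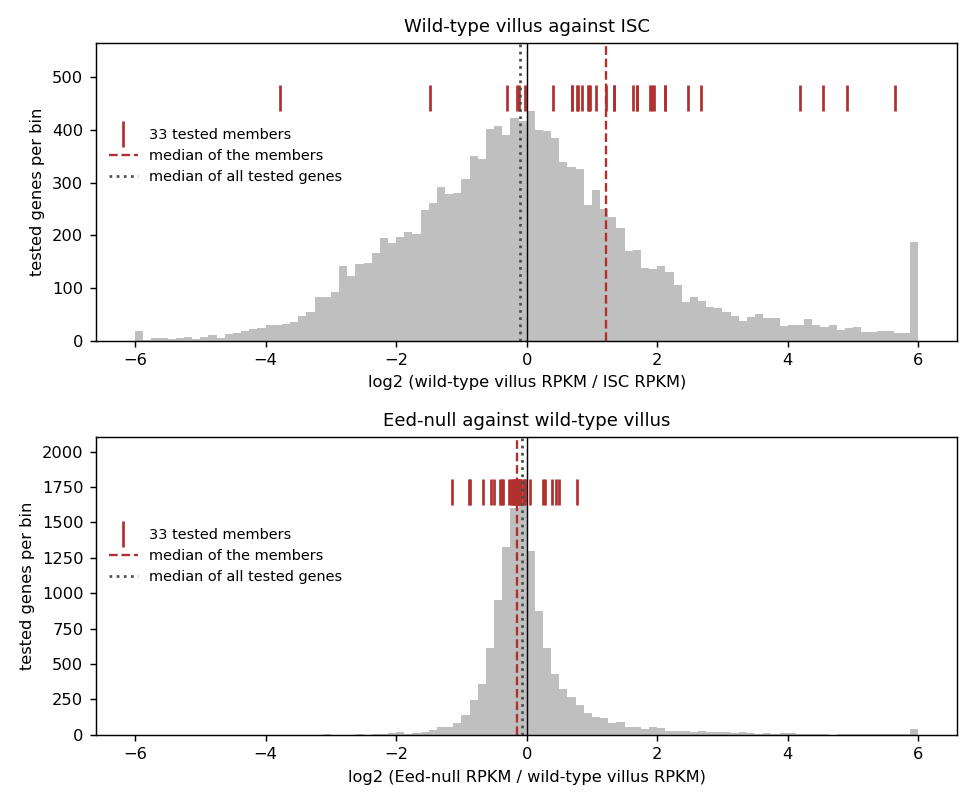
Histograms of the log2 ratio over tested genes with a value above 0 in both groups (grey, values beyond 6 gathered in the outer bins), with the 33 tested members as red ticks, the members' median (dashed) and the median of all tested genes (dotted). The members' median of 1.21 lies to the right of the bulk between villus and ISC, and the median of -0.15 lies within the bulk between Eed-null and wild-type villus.

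Few of these genes were called between Eed-null and wild-type villus. Of 33 tested members, 1 (3.03%) rose and 2 (6.06%) fell in Eed-null villus, against 7.9% and 3.46% of the 12525 tested genes. In either direction 3 members (9.09%) were called, near the 11.4% of all tested genes. Among the 4732 tested genes that reached 10 RPKM in each group, 3.36% were called higher and 4.29% lower, and among the 31 members in that range 3.23% and 6.45%. At a q of 0.10, where 4.92% of tested genes were called lower, Hadh was added to the lower members. The median log2 ratio of Eed-null to wild-type villus was -0.15 over the members, -0.08 over all tested genes and -0.10 over the 10003 tested genes that reached 1 RPKM in each group. Values were lower in Eed-null villus for 26 of 33 members and for 7228 of 12525 tested genes, and 4 of these members (Acsl1, Acadvl, Pex11a and Creb3l3) turned higher when ratios were recentred on the median gene. In that comparison the authors' test called none of the genes that reached 10 RPKM in each group that differed less than 1.5-fold, and 57.4% of those between 1.5-fold and 2-fold. For members in that range, the lack of a call under 1.5-fold therefore does not show equal levels.

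Hsd17b4, the peroxisomal multifunctional enzyme, fell furthest. It stood at 47.4 RPKM without Eed but 105 RPKM in wild-type villus, a 2.22-fold lower level (authors' deposited table, q = 4.17e-05). Eci1, the mitochondrial isomerase, fell 1.82-fold from 63.3 to 34.7 RPKM (authors' deposited table, q = 0.00366). Eci2, the other isomerase, had 31.0 against 23.6 RPKM (authors' deposited table, q = 0.662). The ratio of Eci1 to Eci2 was 2.69 in wild-type and 1.12 in Eed-null villus. Acsl3, an acyl-CoA synthetase of lipid droplets, rose 1.70-fold from 10.5 to 17.8 RPKM (authors' deposited table, q = 0.0433). That call was lost at a q of 0.01, and also where 1 RPKM was required in both groups (q = 0.0581), and the gene shares its locus entry with Utp14b.

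**Figure D4:**
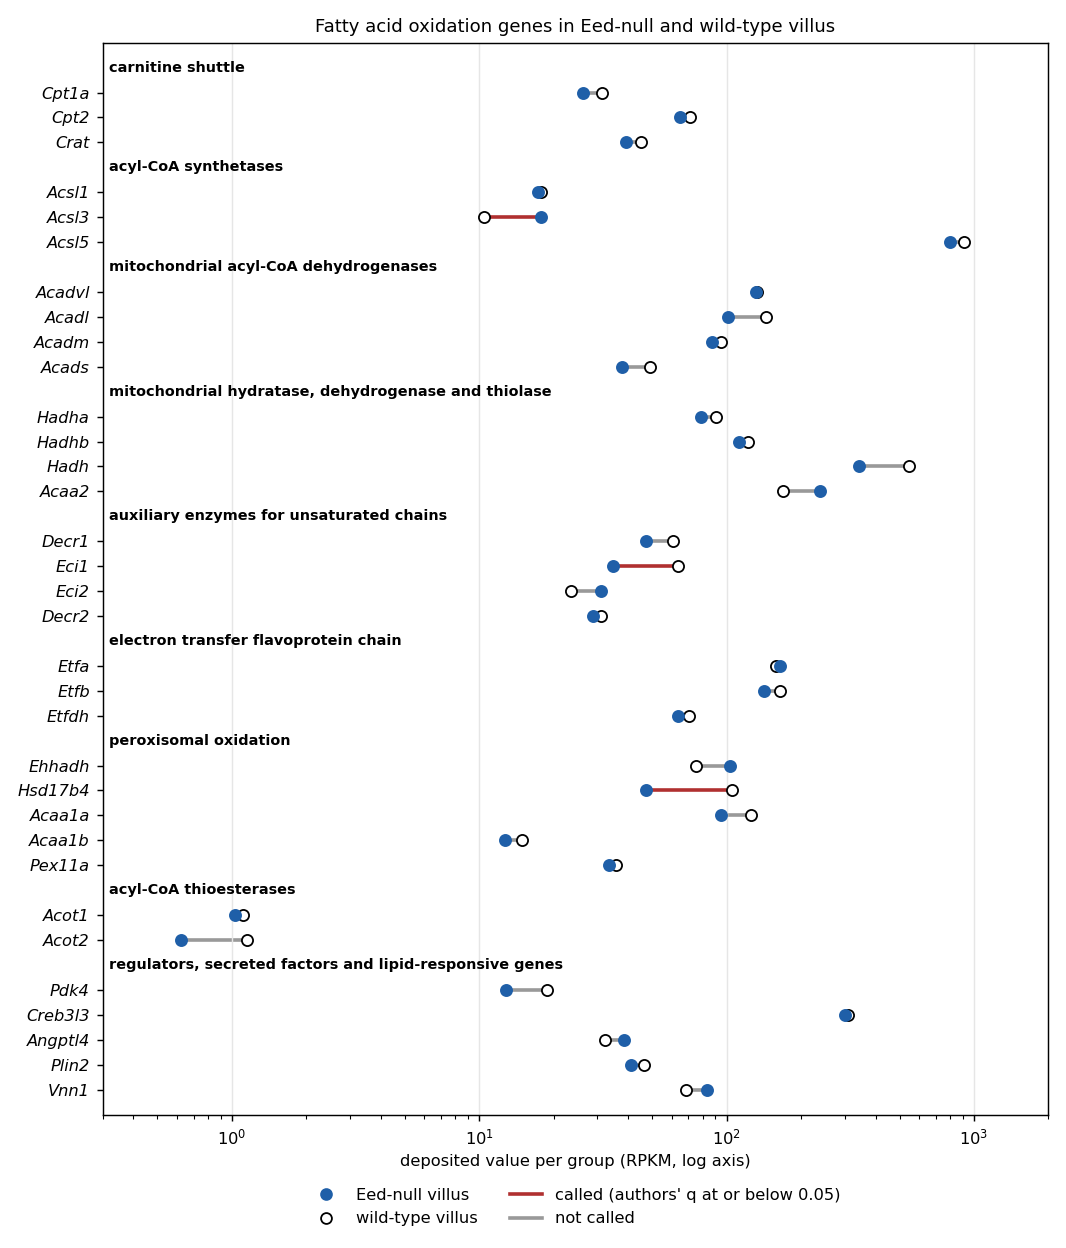
Deposited RPKM (log axis) of the 33 tested members in Eed-null (filled circles) and wild-type villus (open circles), grouped by role; each point is the authors' 1 value for 3 libraries, and lines are red where the gene was called. Acsl3, Eci1 and Hsd17b4 carry the only red lines.

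The other members were not called. Hadh stood at 343 RPKM without Eed but 547 RPKM in wild-type villus (1.60-fold lower; authors' deposited table, q = 0.0738). Pdk4 had 12.8 against 18.8 RPKM (q = 0.121), Acadl 102 against 145 RPKM (q = 0.172) and Acaa2 239 against 169 RPKM (authors' deposited table, q = 0.183). Ehhadh had 103 against 75.2 RPKM (q = 0.241) and Acot2 0.625 against 1.15 RPKM (authors' deposited table, q = 0.224). Among genes far above ISC in villus, Creb3l3 was at 300.3 against 310.4 RPKM, Acsl5 at 798 against 912 RPKM and Vnn1 at 83.0 against 68.4 RPKM (authors' deposited table, q = 0.972, 0.843 and 0.564). Acaa1b had 12.7 against 14.9 RPKM and Acaa1a 94.6 against 125 RPKM (authors' deposited table, q = 0.710 and 0.318).

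The other genes of the mitochondrial route, with Decr2, were not called either. Levels are given for Eed-null and then wild-type villus. The carnitine shuttle had 26.2 against 31.5 RPKM for Cpt1a, 64.6 against 71.2 RPKM for Cpt2 and 39.4 against 45.2 RPKM for Crat (authors' deposited table, smallest q = 0.583). Acadvl, Acadm and Acads had 131 against 133, 87.4 against 95.3 and 37.8 against 49.0 RPKM. The trifunctional protein genes had 78.9 against 90.5 RPKM for Hadha and 113 against 123 RPKM for Hadhb. The flavoprotein genes had 164 against 158 RPKM for Etfa, 142 against 165 RPKM for Etfb and 63.6 against 70.3 RPKM for Etfdh. Decr1 and Decr2 had 47.4 against 60.7 RPKM and 28.8 against 31.1 RPKM.

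The last members were likewise not called. Acsl1 had 17.3 against 17.8 RPKM, Pex11a 33.4 against 35.6 RPKM, Acot1 1.03 against 1.11 RPKM, Angptl4 38.5 against 32.3 RPKM and Plin2 41.2 against 46.5 RPKM (authors' deposited table, smallest q = 0.627). Fgf21 was listed at 0.0173 RPKM in Eed-null villus and at 0 in wild-type villus and was not tested. Cell markers moved in the same comparison: 4 of 8 tested goblet cell markers were called higher and 3 of 19 enterocyte markers lower. Summed over all tested markers, called or not, levels were 14213 against 10624 RPKM and 31838 against 43073 RPKM. These sums rest largely on abundant markers that were not called. Among them were Tff3 at 5538 against 3551 RPKM and Fabp2 at 7122 against 13528 RPKM (authors' deposited table, q = 0.145 and 0.126). Over all tested genes 7.9% were called higher and 3.46% lower. The part of these cell markers in the results was not tested.

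Set on the scale of the first table, the 3 groups can be read side by side, with no test across tables. The wild-type villus values of the tables differ by a constant factor of 1.16. Hsd17b4 then stood at 37.8 RPKM in ISC, 122 RPKM in wild-type villus and 55.1 RPKM in Eed-null villus. Eci1 stood at 55.7, 73.6 and 40.4 RPKM in the same order. Creb3l3 stood at 7.20, 361 and 349 RPKM, and Acot1 at 17.7, 1.29 and 1.20 RPKM. Cpt1a was at 37.3, 36.6 and 30.4 RPKM.

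Acat1, a mitochondrial thiolase that joins acetyl-CoA units, had 71.5 RPKM in villus against 50.6 RPKM in ISC, 1.41-fold higher (authors' deposited table, q = 0.0496), just inside the threshold. Bdh1, which makes the final ketone body, stood at 56.3 RPKM in villus but 70.5 RPKM in ISC (authors' deposited table, q = 0.220). In Eed-null villus Acat1 was called lower, at 33.6 against 61.5 RPKM (authors' deposited table, q = 0.00231). Among 4 tested genes of ketone body use, 2 were called higher in villus and 2 were higher in ISC. Over all tested genes 30.5% and 32.3% were called in these directions. None of 5 was called in Eed-null villus, where 11.4% of all tested genes were called.

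The regulators of the pathway were mostly higher in villus. Of 15 PPAR and partner regulators, 10 (66.7%) were called higher in villus and 1 (6.67%) was higher in ISC. The shares over all tested genes were 30.5% and 32.3%. Ppara stood at 19.8 RPKM in villus but 5.81 RPKM in ISC (3.41-fold; authors' deposited table, q = 1.61e-09). Hnf4g, a nuclear receptor of the enterocyte, was 9.21-fold and the coactivator Ppargc1a 8.51-fold higher in villus. In Eed-null villus Ppara was called lower, at 8.37 against 17.1 RPKM (2.04-fold; authors' deposited table, q = 0.00386). Lpin1, a phosphatase and coactivator, rose 5.88-fold from 1.04 to 6.12 RPKM with q listed as 0 in the authors' deposited table. The other 13 regulators were not called there.

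Peroxisomal genes outside the list were mostly called higher in villus. Of 19 tested genes of peroxisomal lipid oxidation, 16 (84.2%) were called higher in villus and 2 (10.5%) were higher in ISC. The shares over all tested genes were 30.5% and 32.3%. Ephx2, an epoxide hydrolase, was at 394 against 25.7 RPKM, 15.3-fold higher (authors' deposited table, q listed as 0). Of 15 peroxisome biogenesis genes, 7 (46.7%) were called higher in villus and 2 (13.3%) in ISC. In Eed-null villus 3 of 18 tested peroxisomal oxidation genes were called lower and none higher, with catalase (Cat) at 72.5 against 158 RPKM (2.18-fold; authors' deposited table, q = 5.47e-05). Over all tested genes 3.46% were called lower there and 7.9% higher. Values were lower for 17 of the 18 peroxisomal oxidation genes, with a median log2 ratio of -0.53. They were also lower for 14 of 15 biogenesis genes, with a median of -0.34 and none called. Over all tested genes, values were lower for 7228 of 12525, with a median log2 ratio of -0.08.

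The further list of other acyl-CoA dehydrogenases and their partners holds mostly genes of amino acid and propionate breakdown. Of its 15 tested genes, 2 (13.3%) were called higher in villus and 5 (33.3%) were higher in ISC, with a median log2 ratio of -0.41. The shares over all tested genes were 30.5% and 32.3%. The 2 higher in villus were Acad11, which acts on long acyl chains and shares its locus entry with another gene, at 81.2 against 8.81 RPKM (9.21-fold; authors' deposited table, q listed as 0), and Pccb, a propionyl-CoA carboxylase subunit, at 71.2 against 35.1 RPKM (2.03-fold, q = 1.42e-05). Ivd, of leucine breakdown, was 3.13-fold higher in ISC, and Pcca, the partner subunit of Pccb, 2.87-fold above villus, per the authors' deposited table. In Eed-null villus 2 of 15 (13.3%) were called lower, against 3.46% of all tested genes, and none higher. Pccb was among the lower genes, at 21.3 against 61.3 RPKM (authors' deposited table, q = 3.51e-09).

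Fat handling around the pathway was also higher in villus. Of 15 tested carnitine and acyl transport genes, 11 (73.3%) were called higher there and 1 (6.67%) higher in ISC. The shares over all tested genes were 30.5% and 32.3%. Fabp2, a fatty acid binding protein gene that is also an enterocyte marker, reached 15718 RPKM against 356 RPKM. In Eed-null villus 2 of 16 (12.5%) were called higher and 3 (18.8%) lower, against 7.9% and 3.46% of all tested genes. The peroxisomal and membrane transporter Slc27a2 was among the lower genes, at 47.6 against 97.1 RPKM (authors' deposited table, q = 0.00018). Of 10 tested lipid droplet and lipolysis genes, 6 (60%) were called higher in villus and 1 (10%) in ISC. Cidec, a lipid droplet fusion protein, was at 102 against 1.76 RPKM. Of 7 other thioesterases tested, 5 (71.4%) were called higher in villus and none in ISC. Acot9 was 9.92-fold above ISC, per the authors' deposited table.

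Fatty acid synthesis and pyruvate entry were divided. Of 13 tested synthesis genes, 5 (38.5%) were called higher in villus and 5 (38.5%) were higher in ISC. The shares over all tested genes were 30.5% and 32.3%. Fasn, the fatty acid synthase, stood at 25.8 RPKM in ISC but 4.64 RPKM in villus, while Me1, which supplies NADPH, was at 4.25 RPKM in ISC but 70.7 RPKM in villus (authors' deposited table). In Eed-null villus Me1 and Scd1, a desaturase, were called higher (1.88-fold and 4.07-fold) and no synthesis gene lower. These 2 were 15.4% of the 13 tested, against 7.9% of all tested genes. Of 12 genes of pyruvate dehydrogenase control, 6 (50%) were called higher in villus and 2 (16.7%) in ISC. Pdk2, a relative of Pdk4, was 3.24-fold higher in villus. In Eed-null villus Dlat, a core subunit of the complex, and Mpc1, a pyruvate carrier subunit, were called lower (2.39-fold and 1.64-fold in the authors' deposited table). These 2 were 16.7% of the 12 tested, against 3.46% of all tested genes.

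**Figure D5:**
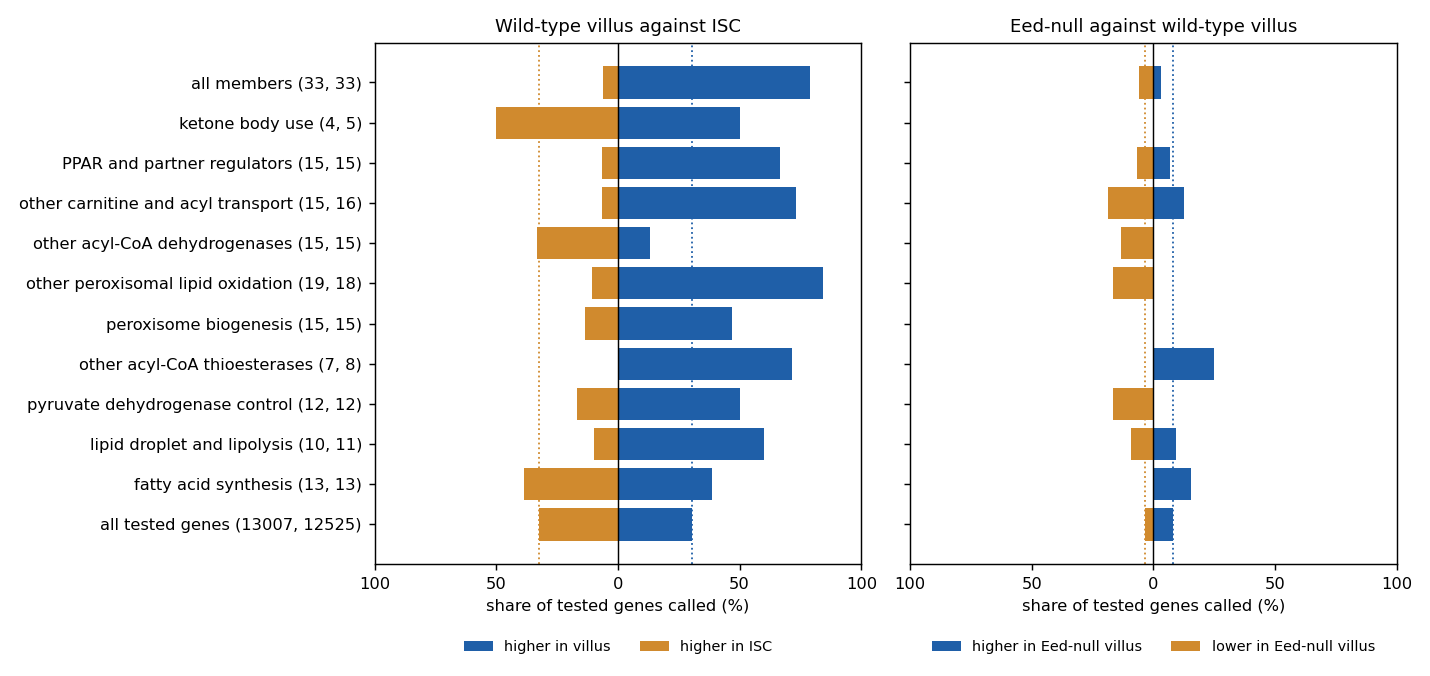
Share of tested genes called in each direction for the members, further pathway lists and all tested genes (bars from 0, with numbers tested in the 2 comparisons in brackets), and dotted lines at the shares over all tested genes. Between villus and ISC the members (78.8%) and the other peroxisomal genes (84.2%) have the longest bars towards villus.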

How the data were processed

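RNA libraries of 9 samples, 3 per group, were prepared with TruSeq V2 (not strand-specific) and read as single ends, per the labels' protocols. The authors deposited 1 RPKM value per gene and group. The header of the villus and ISC table names RPKM, and the unit of the other was inferred, since its wild-type villus values equal those of the first divided by 1.16193. Build mm9, Cuffdiff, Cufflinks 2.0.1, Bowtie and TopHat2 2.0.6 are listed without roles, per the submitters' processing notes. Each gene's deposited q-value and p-value are the authors', per the file headers, and q equals a Benjamini-Hochberg adjustment to within 8.02e-05. A q of 0 is listed for 1389 and 65 tested genes.

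Folds are plain ratios of deposited RPKM, computed with Python 3.11.15 and pandas 2.3.3. The adjustment was tested on simulated data. With no values per library, no model was fitted. The labels call the libraries biological replicates without saying whether they came from separate mice. Without values per library, which spread the authors' p-values measure could not be checked. The 34 members, the 19 further lists and the rules were chosen with earlier results of these data known. All members are named, and of each further list at most 3 called genes at 1 RPKM or more with the largest ratio, plus Ppara. Bdh1, Echs1 and Hsd17b10 were named after their values were seen. So were Pccb between villus and ISC, and Tff3 and Fabp2 between Eed-null and wild-type villus. Alternatives were other q thresholds, level filters, leaving out genes that share a locus entry, a minimum fold, other pseudocounts, recentring and quantile scaling. The 14 chromatin libraries were not analysed here. Some results of the further lists are not reported here.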

Additional observations from a re-analysis of the deposited data

How the results depend on the processing

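Between villus and ISC, every alternative but quantile scaling kept the calls of the tested members it included. Recentring and quantile scaling changed only the ratios and kept the authors' q, so they could turn a direction but not remove a call. Quantile scaling moved 4 called genes to the ISC side, leaving 22 called members on the villus side and 6 on the ISC side. Under that scaling Hadha, Hadhb, Etfa, Etfb and Eci1 reversed (log2 ratios -0.035, -0.017, -0.21, -0.11 and -0.36), and the members' median was 0.68. Leaving out members that share a locus entry moved the median to 1.34. In the Eed-null comparison the count of higher members fell from 1 to 0 at a q of 0.01, with 1 RPKM required in both groups, and without shared locus entries, where Acsl3 itself is left out. At a q of 0.10 Hadh was also called lower. Recentring on the median ratio moved the members' median from -0.15 to -0.041 and reversed Acsl1 (0.064), Acadvl (0.085), Pex11a (0.013) and Creb3l3 (0.057), none of them called. Quantile scaling reversed Acsl1 (0.029) and Acadvl (0.046). The cause of these changes was not tested beyond the construction of each alternative. No paired analysis was possible because the tables hold 1 value per group, and for the same reason no library could be left out. Depth per library is unknown, and differences under 1.5-fold were not called between Eed-null and wild-type villus in genes at 10 RPKM or more.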
